A study of Drosophila melanogaster with 14 samples.

Results

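The genes scpr-A, scpr-B, scpr-C, antr (antares), Ag5r and Ag5r2 of the fruit fly Drosophila melanogaster were followed across testes of 7 genotypes. They were taken by name from the per-library gene tables, and all 6 were found among the 16078 genes that could be joined across the libraries. In an earlier look at the same data scpr-A had been singled out by its low level in the mutants. The levels of the scpr genes in bam, comr, can and mip40 mutants against wild type are therefore given as a description, with no test.

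RNA was sequenced from adult testes, 50 per library, of 3-day-old males, with 2 biological replicates of each genotype and 14 libraries in all. Besides wild type (wt) there were mutants of mip40, can, comr, bam and CG9879, and the combined mutant mip40/bam, which is set against bam, so that both groups of that comparison carry a bam mutation. The labels name no alleles. bam is needed for early germ cells, the spermatogonia, to stop dividing and become spermatocytes, and its mutant testes fill with spermatogonia. The products of comr and mip40 are parts of tMAC, a chromatin complex of the testis, and can encodes a testis TBP-associated factor (tTAF). Mutants of these genes arrest as primary spermatocytes, and the 3 are called arrest mutants here.

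CAP proteins are named after cysteine-rich secretory proteins, antigen 5 of insect venom and pathogenesis-related proteins of plants. They share a compact domain with conserved cysteines, and most carry a signal peptide and are secreted. In animals many are made in the male reproductive tract. In Drosophila the scpr genes are known as testis transcripts of nearly identical sequence. antr encodes a seminal fluid protein of the male accessory gland and belongs to the sex peptide network, the set of proteins through which sex peptide is kept on sperm in the mated female. Ag5r and Ag5r2 (antigen 5-related) were described from the digestive tract.

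The values were FPKM (fragments per kilobase of transcript, scaled to the fragments of the library), a level already scaled by transcript length. The intervals deposited with the FPKM values imply 3900000 to 13090000 fragments per library, most in the mip40/bam libraries. CG9879 transcripts stood at 0.756 and 1.3 FPKM in the CG9879 mutant against 64.0 and 53.4 in wt. mip40 transcripts were lower in mip40/bam (25.8 and 27.4 FPKM) than in bam (59.1 and 60.4), and in mip40 (20.8 and 20.2) they were below the comr and can libraries (99.6 to 135.8) and near wt (22.8 and 20.9). bam transcripts were at 2.91 and 0 in bam and 0.913 and 0.665 in mip40/bam, against 17.0 to 31.4 in the arrest mutants and 3.14 and 2.81 in wt. comr and can transcripts were higher in their own mutants than in wt, with comr at 19.2 and 17.8 against 6.45 and 8.48 and can at 52.6 and 50.1 against 15.7 and 15.4. The labels call the replicates biological without saying what each consists of beyond its 50 testes, and p-values measure the spread between such libraries. Libraries that stood apart were comr replicate 2, CG9879 replicate 2, can replicate 1 and wt replicate 1. In these 4 libraries the 41 measured accessory gland markers summed to 3725 to 19930 FPKM and 35 to 37 of them reached 1 FPKM. In the other 10 libraries the sum was 13.3 to 442 FPKM and 4 to 27 of the markers reached 1 FPKM, with the highest values in the bam libraries. Of the testis genes of late spermatogenesis used below, 29 of 29 reached 1 FPKM in both wt libraries.

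The scpr genes lie within a short stretch of chromosome arm 3R (BDGP6 coordinates, as in the tables). scpr-C (FBgn0037879) is at 3R:11225520-11226681 on the plus strand, scpr-B (FBgn0037888) at 3R:11240041-11240991 on the minus strand and scpr-A (FBgn0037889) at 3R:11241183-11242120 on the plus strand. scpr-B and scpr-A are arranged head to head, with 191 bases between their starts. Each scpr gene has 2 exons in the annotation. Reads of the 3 copies cannot be told apart with certainty, so single-copy values are uncertain and their sum is given as well. An exon of scpr-B also overlaps CG31388 on the other strand, and the use of strand in counting is not given.

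scpr-A and scpr-C were among the most abundant transcripts of wt testes. scpr-A stood at 1166 and 869 FPKM in the 2 wt libraries and was the 80th and the 103rd gene by level. scpr-C stood at 1315 and 951 FPKM and was the 69th and the 96th. scpr-B was far lower, at 30.8 and 24.3 FPKM. The sum of the 3 genes was 2178 ± 472 FPKM in wt (SD, n = 2), with 2511 and 1844 in the 2 libraries.

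**Figure D1:**
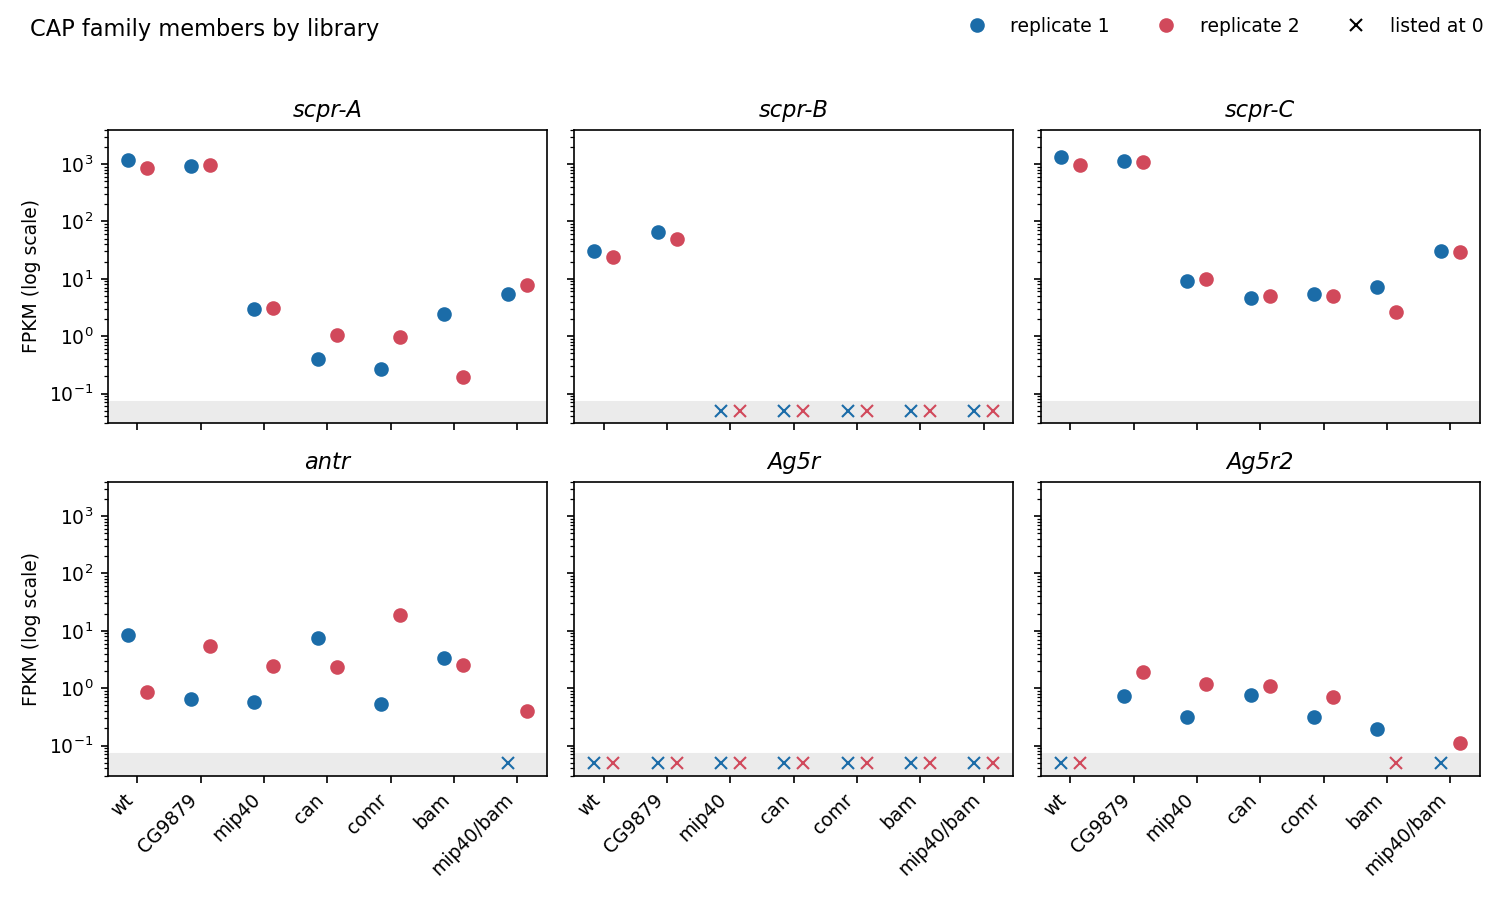
FPKM of each gene (log scale) in the 2 libraries of each genotype. Points are single libraries, and crosses in the grey strip are libraries in which the gene is listed at 0. scpr-A and scpr-C lie between 869 and 1315 FPKM in wt and CG9879 and reach at most 30.2 FPKM in the other 5 genotypes, while the 2 libraries of a genotype are often far apart for antr.

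In the 3 arrest mutants and in bam, the scpr genes were nearly absent. The sum of the scpr genes was 5.64 and 5.97 FPKM in comr and 4.98 and 6.02 in can. It was 12.03 and 12.9 in mip40, and 9.6 and 2.83 in bam. These means are 0.267%, 0.253%, 0.573% and 0.285% of the wt mean. No library of these groups came within 100-fold of either wt library. In bulk tissue, fewer cells that make a transcript and less of it per cell cannot be told apart.

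For scpr-A the values were 0.263 and 0.983 FPKM in comr, 0.402 and 1.06 in can, 3.01 and 3.14 in mip40, and 2.45 and 0.196 in bam. The deposited intervals imply that these rest on 1 and 5 fragments in comr, 1.99 and 5 in can, 11 and 11.9 in mip40 and 14.7 and 1 in bam, against 4000 and 3210 in wt. At so few fragments the order of comr, can and bam cannot be read. scpr-C kept 5.38 and 4.99 FPKM in comr, 4.58 and 4.96 in can, 9.01 and 9.78 in mip40, and 7.15 and 2.63 in bam. For scpr-B every one of the 10 libraries of bam, mip40/bam and the arrest mutants has a listed value of 0. The 6 genes with an estimate flagged as failed in any library had been removed, so these values of 0 carry no such flag. A listed 0 may still be too low, since reads of the 3 copies cannot be told apart with certainty. The authors' deposited table gives scpr-B a value of 0.332 in comr, and 0.317 in mip40/bam against 0 in bam with the status of no test. No ratio of FPKM is given for it. The overlapping gene CG31388 was listed at 0 in wt and CG9879 and between 1.33 and 11.5 FPKM in those 10 libraries.

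Differences on the log2(FPKM + 1) scale are too small for genes near 0. On that scale the sum was lower than wt by 8.30 in comr (log2 fold change -8.30, SE 0.37), and the values were -8.38 in can, -7.32 in mip40 and -8.40 in bam with the same SE. scpr-A alone was at -9.31 in comr, -9.21 in can, -7.95 in mip40 and -8.95 in bam (SE 0.45). Values lower than that of scpr-A were found for 0.0231% of the 12971 genes tested in comr, 0.00771% in can, 0.0848% in mip40 and 1.05% in bam. Since scpr-A was singled out by its low level in the mutants, this rank follows in part from that choice. scpr-C was at -7.50, -7.60, -6.75 and -7.68 in comr, can, mip40 and bam (SE 0.31).

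The size of the scpr difference can be set beside that of other genes of late spermatogenesis, a list of 29 measured genes for sperm tail, sperm chromatin and spermatid proteins. A low place of the scpr genes beside it follows in part from the choice of scpr-A by its low level in the mutants. In can and in mip40 the scpr sum had a lower value than every gene of that list. The lowest of the list were the protamine gene Mst35Bb in can, at -4.97, whose reads may be shared with its close copy Mst35Ba, and the post-meiotically transcribed w-cup in mip40, at -4.74. In comr only w-cup, at -8.71, was lower than the scpr sum. The medians of the list were -2.86 in comr, -2.98 in can and -1.94 in mip40. In bam the position was the opposite, since 25 of the 29 genes had lower values than the scpr sum and the median was -10.29.

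**Figure D2:**
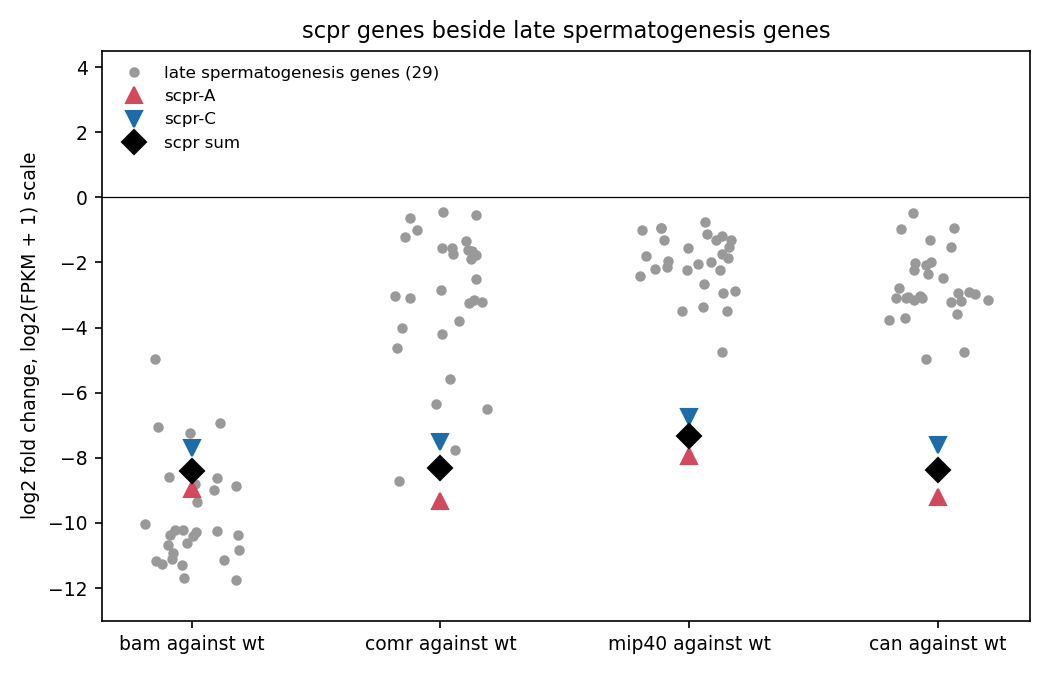
Log2 fold change of 29 late spermatogenesis genes (grey points, spread sideways for visibility), scpr-A, scpr-C and the scpr sum in 4 mutants against wt, on the log2(FPKM + 1) scale. The scpr genes lie below all grey points in can and mip40, at or near the lowest in comr, and above most in bam.

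The loss can also be set beside that of all abundant genes. Of the 1711 genes with a wt mean of at least 100 FPKM, those under 1% of their wt mean numbered 990 in bam, 525 in comr, 126 in mip40 and 30 in can. scpr-A, which was singled out by such low levels, and scpr-C were among them in each of these 4 mutants. In can, where such loss was least frequent, scpr-A stood at 0.072% and scpr-C at 0.421% of wt.

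Between the copies, the share of scpr-A in the sum was 43.9% to 47.1% in the 4 wt and CG9879 libraries and 4.67% to 25.5% in the other 10. scpr-C was the higher copy in all 14 libraries, those of wt and CG9879 included. Because reads of near-identical copies may be split by the software, these shares are uncertain. In the authors' deposited table, made per transcript on an older build, the wt level was 1264 for scpr-A and 547.9 for scpr-C in the comparison with bam, but the scpr-C value is that of 1 of its 2 annotated transcripts, so the order of the copies cannot be read from it.

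In the CG9879 mutant, whose name is that of the mutated gene, scpr levels were close to wt. scpr-A stood at 935 and 952 FPKM and scpr-C at 1130 and 1082, all within the range of the wt libraries. The scpr sum was 2084 and 2132 FPKM, with a log2 difference of -0.03 (SE 0.37, adjusted p = 1 by limma). scpr-A differed by -0.09 (SE 0.45, adjusted p = 0.991) and scpr-C by -0.02 (SE 0.31, adjusted p = 1). Among all genes tested in this comparison 11.5% were called at an adjusted p under 0.05, and of the scpr genes 1 of 3 was.

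The called copy was scpr-B, which rose in CG9879. It was at 66.3 and 49.3 FPKM there against 30.8 and 24.3 in wt. The log2 difference was 1.04 (SE 0.16, adjusted p = 0.00372 by limma), in a comparison in which 4.26% of all genes were called higher. In the authors' deposited table scpr-B was 25.14 in wt and 55.68 in CG9879, with a log2 fold change of 1.147 and a q-value of 0.00621. The per-library tables of CG9879 and of mip40/bam were made with another annotation than those of the other 10 libraries, which cannot be told apart from genotype. The call was lost when CG9879 and wt were fitted without the other groups (adjusted p = 0.162).

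Loss of mip40 went with more scpr transcript in testes that also lacked bam. The scpr sum was 35.7 and 36.9 FPKM in mip40/bam against 9.6 and 2.83 in bam. The log2 difference of the sum was 2.55 (SE 0.37, adjusted p = 0.000653 by limma), in a comparison in which 16.4% of all genes were called higher. A low level in bam may have been part of what singled out scpr-A. The p-values and q-values of the scpr genes in this comparison are therefore not independent of that choice. With the summed FPKM made equal across libraries that share was 6.55%, and the sum was still higher, by 2.12. scpr-C rose from 7.15 and 2.63 FPKM to 30.2 and 29.1 (log2 difference 2.49, SE 0.31, adjusted p = 0.000234). scpr-A rose from 2.45 and 0.196 FPKM to 5.48 and 7.78 (1.89, SE 0.45, adjusted p = 0.00889). The sum in mip40/bam was still 1.67% of wt. In the authors' deposited table scpr-C went from 2.757 in bam to 19.65 in mip40/bam with a q-value of 0.000382, and scpr-A from 1.457 to 7.99 with a q-value of 0.00992.

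With the spread estimated from bam and mip40/bam alone the adjusted p was 0.0858 for the sum, 0.0595 for scpr-C and 0.165 for scpr-A, and the scpr-A call was also lost without mip40/bam replicate 2 (adjusted p = 0.0655) and when the 4 libraries that stood apart were left out (0.0797). bam replicate 1, the higher of the pair for scpr, also held 13 of the 29 late genes at 1 FPKM or more, against 1 in bam replicate 2 and 2 in each mip40/bam library. The late genes summed to 38.5 and 17.2 FPKM in bam and to 36.1 and 39.6 in mip40/bam. Some markers of other tissues were higher in mip40/bam than in bam as well, with gut markers (32 genes) at 309 and 417 FPKM against 107 and 176, ejaculatory duct and bulb markers (8 genes) at 1078 and 922 against 218 and 295, and fat body markers (13 genes) at 596 and 532 against 325 and 399. As a percentage of the summed FPKM of a library the fat body markers overlapped, at 0.0459% and 0.0413% against 0.0354% and 0.0418%. Others were lower in mip40/bam, with accessory gland markers (41 genes) at 103 and 124 FPKM against 191 and 442, and hub and cyst cell markers (9 genes) at 112 and 104 against 147 and 170. The part of all these in the scpr difference was not tested. Of the 29 late genes 2 rose and 27 were not called between bam and mip40/bam, with a median log2 difference of -0.22.

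By level of the scpr sum, the genotypes thus ran from wt and CG9879, whose libraries overlap, through mip40/bam at 36.3 ± 0.861 FPKM and mip40 at 12.5 ± 0.632 to bam at 6.21 ± 4.79, comr at 5.81 ± 0.235 and can at 5.50 ± 0.74 (SD, n = 2 each), which overlap one another. mip40 lay above the highest bam, comr and can library, and mip40/bam above mip40. How many of all genes separate between these groups was not counted.

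The genes most like the scpr sum were chosen by Pearson correlation of log2(FPKM + 1) over the 14 libraries, which share genotypes in pairs, so the values are a description. They were CG12111 (r = 0.984), CG32457 (0.982), CG11779 (0.981), CG43249 (0.976) and CG42592 (0.973). CG12111, at 261 FPKM in both wt and CG9879, was at 4.17 in bam, 5.996 in comr, 8.88 in can, 7.60 in mip40 and 25.7 in mip40/bam. Like the scpr sum it was higher in mip40/bam than in the other 4 mutants with low levels. CG32457 was at 293 FPKM in wt and below 1 FPKM in the same 5 genotypes, with 0.947 in mip40/bam as the highest. CG11779 varied far less, from 47.0 FPKM in can to 205 in wt, so a high correlation does not mean a loss of the same size.

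The 7 joined genes between scpr-C and scpr-B did not share the scpr pattern. Their wt means ran from 0 to 27.7 FPKM. For example Arfip, a gene for an ADP-ribosylation factor interacting protein, was at 27.7 FPKM in wt and at 93.0, 74.1 and 99.0 in comr, can and mip40. CG17734, the next gene beyond scpr-A, was at 29.9 FPKM in wt and 105 in comr.

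antr (FBgn0050488, 2R:12846848-12848004, minus strand) did not share the scpr pattern, and the 2 libraries of a genotype were often far apart. Replicates 1 and 2 held 8.61 and 0.851 FPKM in wt, 0.661 and 5.34 in CG9879, 7.36 and 2.38 in can, and 0.526 and 18.6 in comr. They held 0.581 and 2.45 FPKM in mip40, 3.38 and 2.55 in bam, and 0 and 0.395 in mip40/bam. The highest 4 libraries, at 5.34 to 18.6 FPKM, were comr replicate 2, wt replicate 1, can replicate 1 and CG9879 replicate 2. These are the 4 libraries with the highest summed accessory gland markers, and the other 10 lay between 0 and 3.38, with bam replicate 1 as the highest of them.

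**Figure D3:**
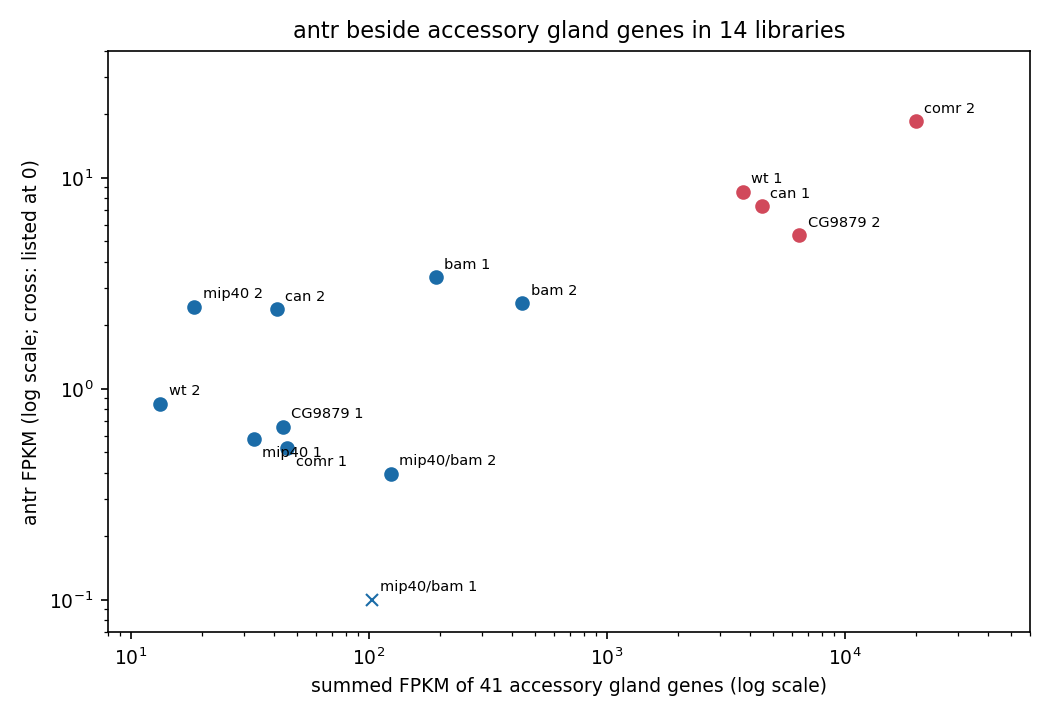
antr FPKM against the summed FPKM of 41 accessory gland genes in each of the 14 libraries, both on log scales, with the library named beside its point. Red points are the 4 libraries that stand apart by accessory gland transcripts, and they are also the 4 highest for antr.

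limma called antr in none of the 6 comparisons, in which 78.6% (bam), 76.4% (comr), 71.4% (can), 73.2% (mip40), 11.5% (CG9879) and 36.1% (mip40/bam against bam) of all genes tested were called. Against wt the log2 differences were -0.10 in bam, 0.37 in comr, 0.34 in can, -0.85 in mip40 and -0.38 in CG9879, and it was -1.74 in mip40/bam against bam, all with an SE of 1.22. The adjusted p-values were 0.969, 0.808, 0.844, 0.564, 0.95 and 0.356 in that order. Without the 4 libraries the difference from wt was 1.09 in bam, -0.28 in comr and 0.34 in mip40, where the direction turned in each. That setting keeps only replicate 2 of wt and replicate 1 of comr. The smallest unadjusted p of the 6 was 0.19, so none was under 0.05 before adjustment either. Fitted on bam and mip40/bam alone, the difference between them was called (adjusted p = 0.0328). The accessory gland markers also had lower sums in mip40/bam, at 103 and 124 FPKM against 191 and 442 in bam, with 2 of 38 tested markers called lower and a median log2 difference of -0.91, and their part in the antr difference was not tested. The authors' deposited table, by contrast, has antr lower in bam (1.843 against 6.55, q = 0.0146) and in mip40 (1.139 against 6.33, q = 0.0329) than in wt, and does not pass 0.05 in the other 4 comparisons (q = 0.0919 in can, 0.582 in comr, 0.852 in CG9879 and 0.108 in mip40/bam against bam).

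The genes most like antr over the 14 libraries were CG32985 (r = 0.919), Sfp36F (0.917), CG43111 (0.917), CG42564 (0.91) and lectin-29Ca (0.909). Sfp36F is itself on the list of accessory gland markers, and CG42564 is on the list of other CAP genes. The same libraries were high for the sex peptide network. SP, the sex peptide itself, was at 2896 FPKM in comr replicate 2, 1240 in CG9879 replicate 2, 559 in wt replicate 1 and 493 in can replicate 1, and at 0 to 63.9 in the other 10. The network gene aqrs, a serine protease homologue, was at 56.3, 16.4, 10.4 and 16.3 FPKM in these 4 libraries and at most 1.78 elsewhere. CG9997, intr, lectin-46Ca, lectin-46Cb and Sems, which encode further proteases and lectins of the network, reached 0.678 to 35.8 FPKM in the 4 libraries, and at most 2.76 elsewhere.

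Of the sex peptide network list, 11 of 12 joined genes were tested. Those called numbered 2 in bam, 2 in comr, 1 in can, 1 in mip40 and 1 in CG9879 against wt, and 0 in mip40/bam against bam, where 78.6%, 76.4%, 71.4%, 73.2%, 11.5% and 36.1% of all genes tested were called. In bam, comr and can against wt, hdly, which acts in the female in this network, rose (2.10, 1.26 and 0.78, adjusted p = 8.81e-05, 0.00288 and 0.035), with 44.3 and 61.0 FPKM in bam against 11.7 and 11.0 in wt. With median-of-ratios scaling the comr rise was 0.09 and the can value turned to -0.33, with neither called. Quantile normalization also turned the can value, to -0.045 and not called, and of 12 alternatives another 5 lost the can call. SPR, the sex peptide receptor, fell in bam, comr, mip40 and CG9879 (-1.50, -1.48, -0.72 and -0.72, adjusted p = 6.49e-06, 7.82e-06, 0.00142 and 0.0129) from 2.01 and 2.39 FPKM in wt. With quantile normalization none of these SPR calls held, and in CG9879 the call was lost under 6 of 12 alternatives. No other gene of the list was called in any of the 6 comparisons. Esp, a transporter that acts in the female, varied little, between 4.19 and 8.09 FPKM over the 14 libraries.

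antr lies between other CAP genes on 2R, with CG17575 251 bases to its left and CG30486 29 bases to its right, all on the minus strand. CG17575, also a member of the sex peptide network, was at 26.8 FPKM in comr replicate 2, 13.6 in can replicate 1, 6.33 in wt replicate 1 and 5.25 in CG9879 replicate 2, and at most 1.18 elsewhere. It was not called in any of the 6 comparisons. CG30486 stayed between 0 and 1.72 FPKM except in comr replicate 2, where it was 6.50.

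Ag5r (FBgn0015010, X:14784664-14786551) was listed at 0 in all 14 libraries and was not tested. The authors' deposited table gives it low group values, 0.087 to 0.978, each with the status of no test. Ag5r overlaps the noncoding gene CR45522, which is also listed at 0 in all libraries. Ag5r2 (FBgn0020508, X:14782962-14784052), 611 bases away on the same strand, was barely detected. It was 0 in both wt libraries, 0.741 and 1.93 FPKM in CG9879, 0.318 and 1.21 in mip40, 0.748 and 1.1 in can, 0.315 and 0.71 in comr, 0.192 and 0 in bam, and 0 and 0.111 in mip40/bam. The deposited intervals imply at most 6 fragments in any library.

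limma called Ag5r2 higher than wt in can (log2 difference 0.94, SE 0.30, adjusted p = 0.0186), CG9879 (1.17, adjusted p = 0.0371) and mip40 (0.77, adjusted p = 0.0427). It was not called in comr (0.58, adjusted p = 0.105) or bam (0.13, adjusted p = 0.729). Ag5r2 reached 1 FPKM, the level asked of tested genes, only in can replicate 2, CG9879 replicate 2 and mip40 replicate 2. The gene was thus tested only through groups in which it was then called higher, and these calls are not independent of the filter. None of the 3 calls held when either wt library was left out, with adjusted p between 0.0622 and 0.127, and of 12 alternatives 6 lost the call in can, 6 in CG9879 and 7 in mip40. The summed gut markers, 32 measured genes, were 54.9 and 37.6 FPKM in wt, 74.0 and 55.7 in can, 90.3 and 64.6 in mip40 and 10.1 and 43.1 in CG9879, and their part in these values was not tested. The genes most like Ag5r2 were also near 0, such as CR43983 (r = 0.887), which was listed at 0 in wt and reached a mean of 1.90 FPKM in CG9879.

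Some other CAP genes of the testis were lower in the arrest mutants too, to widely different extents, while others rose or were not called. The list of 26 other CAP genes was made from general knowledge of the family, and 24 were joined and 21 tested. Against wt, 10 of 21 fell and 1 rose in bam, and 10 fell and 1 rose in comr. In can 9 fell and 2 rose, and in mip40 10 fell and 3 rose. CG17974 is among those that fell in each, and it was tested only because the wt libraries passed 1 FPKM. Among all genes tested 34.4% were lower and 44.2% higher in bam, 25.4% and 47.8% in mip40, 20.4% and 51.0% in can, and 27.9% and 48.5% in comr. With median-of-ratios scaling, which lowers the median log2 difference of the 7941 genes with a mean of at least 10 FPKM by 1.05 to 1.18 in these 4 mutants, 46.1% of all genes were lower and 29% higher in bam, 41.1% and 25.6% in mip40, 38.8% and 23.7% in can, and 41.9% and 26.8% in comr. Of the 21 other CAP genes 12, 11, 10 and 10 fell in that order. The list's median log2 difference, on the values as deposited, was -1.39 in bam, -1.31 in comr, -0.46 in can and -1.17 in mip40, against 0.21, 0.59, 0.62 and 0.46 for all genes tested.

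**Figure D4:**
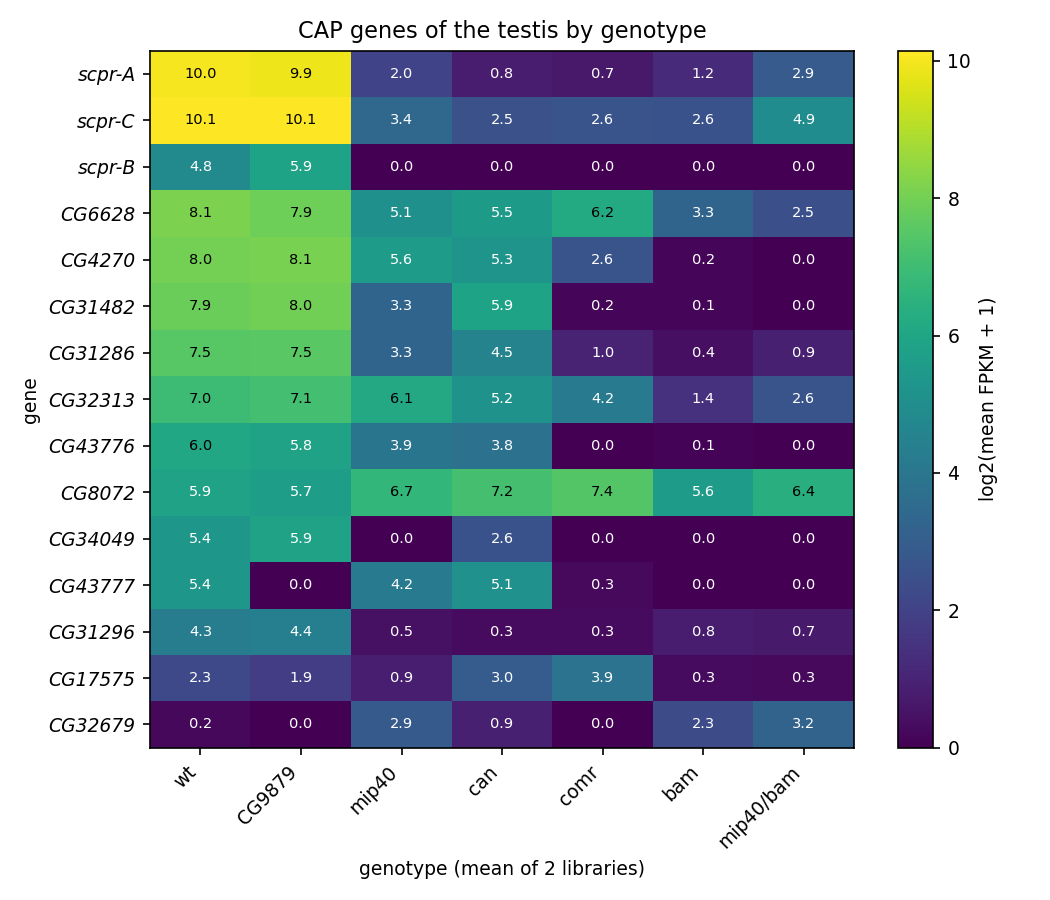
Heat map of log2(mean FPKM + 1), mean of 2 libraries, for the scpr genes and the other CAP genes with at least 10 FPKM in some genotype or a call past a log2 fold change of 2 in an arrest mutant. Rows below scpr-B are sorted by wt level. CG31296 is near 0 in all 3 arrest mutants, as the scpr genes are relative to wt, while CG31482, CG4270 and CG43776 keep part of their wt level in can.

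CG31296 kept 1.25% of its wt mean in comr, 1.15% in can and 2.02% in mip40. It was at 20.5 and 17.4 FPKM in wt, at most 0.434 in any comr, can or mip40 library, and its log2 difference was -4.01, -4.05 and -3.85 (SE 0.27, adjusted p = 5.87e-07, 9.66e-07 and 1.09e-06).

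CG31482 and CG31286 showed a graded loss. CG31482 was at 225 and 242 FPKM in wt, 65.7 and 49.8 in can, 6.46 and 10.8 in mip40 and 0 and 0.248 in comr. The arrest mutants differed from each other in direct tests, by 5.70 between can and comr (adjusted p = 2.76e-08) and 2.63 between can and mip40 (1.42e-05). CG31286 was at 182 ± 3.74 FPKM in wt, 22.1 ± 0.157 in can, 8.68 ± 1.86 in mip40 and 1.03 ± 0.849 in comr (SD, n = 2), with 3.58 between can and comr (adjusted p = 1.54e-06). An exon of CG31286 overlaps the gene Ass in the annotation, and the part of Ass reads in these values was not tested. CG4270 fell from 258 ± 7.85 FPKM in wt to 48.0 ± 3.92 in mip40, 37.2 ± 1.92 in can and 5.21 ± 1.03 in comr (-2.41, -2.76 and -5.40).

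CG34049, whose annotated end overlaps CG4270 on the other strand, stood at 41.6 and 38.9 FPKM in wt and 5.47 and 4.34 in can, and was listed at 0 in the comr and mip40 libraries. CG43776 was at 64.8 and 65.6 FPKM in wt, 13.1 and 15.7 in mip40, at 13.4 and 12.2 in can and listed at 0 in comr. CG43777, which shares exons with CG43776, was at 40.2 ± 6.26 FPKM in wt, 34.2 ± 0.43 in can, where it was not called, 17.6 ± 3.47 in mip40 and 0.202 ± 0.0547 in comr. CG32313 kept 55.1% of its wt mean in mip40, with 68.8 ± 14.3 FPKM against 125 ± 17.7 in wt (-0.86, adjusted p = 0.0251), a call lost under 5 of 12 alternatives, among them equal summed FPKM (-0.56, adjusted p = 0.117), without mip40 replicate 1 (0.15) and without wt replicate 2 (0.126). CG6628 kept 25.5% in comr, with 72.0 ± 1.98 FPKM there against 282 ± 83.7 in wt, 44.8 ± 2.3 in can and 33.6 ± 5.79 in mip40.

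In direct comparisons of the arrest mutants, 10 of 21 other CAP genes were higher and 1 lower in can than in comr, where 54.7% of all genes tested were called, 32.0% higher and 22.7% lower. In mip40 against comr 8 were higher and 2 lower, where 45.6% of all genes were called, 22.6% higher and 23.0% lower. In can against mip40 5 were higher and 2 lower, where 51.6% of all genes were called, 32.4% higher and 19.2% lower. With the quantile-normalized values the all-gene shares were 22.5% higher and 37.4% lower in can against comr, and 6 other CAP genes were higher and 2 lower. The scpr sum, at 5.64 and 5.97 FPKM in comr and 4.98 and 6.02 in can, overlapped between those mutants, and it is given without a test.

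CG8072 moved the other way. It was at 57.2 ± 4.67 FPKM in wt and rose to 173 ± 4.79 in comr, 143 ± 15.8 in can and 103 ± 10.1 in mip40 (log2 difference 1.58, 1.30 and 0.83, adjusted p = 1.09e-05, 5.9e-05 and 0.00109). With median-of-ratios scaling the rise was 0.14 in can and turned to -0.26 in mip40, with neither called. CG32679 was listed at 0 in comr and rose in mip40 (7.32 and 5.51 FPKM) and bam (5.5 and 2.38) against 0.322 and 0 in wt (2.68 and 2.03, adjusted p = 2.06e-05 and 0.000124). It reached 1 FPKM, the level asked of tested genes, only in the bam, mip40 and mip40/bam libraries and in can replicate 2. CG32679 was thus tested only through groups in which it was higher than in wt, and these calls are not independent of the filter.

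In CG9879 against wt 3 of the 21 other CAP genes were called, 2 lower and 1 higher, where 7.24% and 4.26% of all genes were. The lower genes were CG17974, at 0.125 against 1.61 FPKM, and CG43777. CG17974 reached 1 FPKM, the level asked of tested genes, only in the wt libraries, so its call is not independent of the filter. That call was also lost when CG9879 and wt were fitted without the other groups (adjusted p = 0.079 by limma). CG43777 was listed at 0 in both CG9879 libraries. Their tables also list CG43775, which shares exons with CG43777, at 60.5 and 55.6 FPKM, and that gene is not listed in the wt tables, so annotation and genotype cannot be told apart here. CG34049 was higher, at 52.3 and 61.3 FPKM (0.48, adjusted p = 0.0476), a call lost under 9 of 12 alternatives with adjusted p of 0.0549 to 0.203, among them those without CG9879 replicate 2 (0.188), wt replicate 1 (0.106) or wt replicate 2 (0.169).

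In mip40/bam against bam, 4 of the 21 rose and 1 fell, where 16.4% and 19.7% of all genes did. CG32313 rose from 2.62 and 0.825 FPKM to 5.92 and 4.35 (1.24, adjusted p = 0.00919), CG32679 from 5.5 and 2.38 to 7.55 and 9.32 (1.004, adjusted p = 0.024), CG8072 from 38.3 and 56.8 to 84.0 and 81.2 (0.81, adjusted p = 0.0037) and CG8483 from 0.214 and 0.411 to 1.9 and 1.62 (1.08, adjusted p = 0.00178). CG6628 fell from 9.24 and 8.25 to 4.75 and 4.49 FPKM (-0.79, adjusted p = 0.00716). Of 12 alternatives, 7 lost the CG32679 call (adjusted p = 0.0582 to 0.216), including those without bam replicate 2 or either mip40/bam replicate. For CG32313, 3 lost it (0.0744 to 0.17), including that without mip40/bam replicate 1, for CG8072 3 (0.0574 to 0.118) and for CG6628 2 (0.0508 and 0.0671), including that without bam replicate 1. The wt-abundant genes CG31286, CG31482, CG4270, CG34049, CG43776 and CG43777 had mip40/bam means of 0 to 0.878 FPKM and were not called. CG8483 and CG17974 lie outside the rule for named genes and were named after their values were seen. CG8483 reached 1 FPKM only in the can, mip40 and mip40/bam libraries, so it was tested only through groups in which it was high.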

How the data were processed

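Polyadenylated RNA of testes was made into TruSeq libraries and sequenced on a MiSeq, per the labels. TopHat, Cufflinks and Cuffdiff are named, with builds dm3 and dm6, in the submitters' processing notes, without versions. For each library the authors deposited gene FPKM with an interval, and 6 comparison tables per transcript with group values, log2 fold changes, p-values and q-values, whose unit of level is not named. Values printed from the latter are credited to the authors' deposited table. Since FPKM is relative to the whole library, abundant genes lower the values of the rest. No counts were used. Fragments behind a value were worked out from its deposited interval for genes with a single transcript, and per library as a median over such genes.

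The tables of 10 libraries used 1 annotation with gene symbols (16745 genes) and those of CG9879 and mip40/bam another with FBgn identifiers (17480 genes). Both were joined by symbol and overlapping position (16078 genes). The 12971 genes that reached 1 FPKM in 2 or more libraries were tested with limma (version 3.58.1, R 4.3.3) on log2(FPKM + 1), with an intensity trend and all 14 libraries, with 7 residual and 1.82 prior degrees of freedom. Tests were two-sided with Benjamini-Hochberg adjustment over all genes tested, called under 0.05. The scpr sum was an added row. limma was tested on simulated data with known changes. Python 3.11.15, pandas 2.3.3 and matplotlib 3.10.9 were used for tables and plots.

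The members and all gene lists were chosen with earlier results of these data known. The genes named are the 6 members, other CAP genes with a mean of at least 10 FPKM in a group or called in an arrest mutant with a log2 fold change past 2, the 5 genes most like the scpr sum, antr and Ag5r2 by Pearson correlation, and genes of the sex peptide network with a mean of at least 1 FPKM. Ag5r, listed at 0 throughout, has no correlation. Other marker lists were used to compare libraries. Summed FPKM over the 14 libraries was 94.0 to 1078 for the ejaculatory duct and bulb (8 genes), 69.4 to 596 for fat body (13), 96.2 to 1917 for early germline (11) and 41.4 to 170 for hub and cyst cells (9). Libraries of the same replicate number were treated as unpaired, since the labels do not say that they are paired. No genome or protein sequences were used.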

Additional observations from a re-analysis of the deposited data

Results flagged for a closer look

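The scpr sum, scpr-A and scpr-C moved in opposite directions with loss of mip40 in the presence and in the absence of bam function. For the scpr sum, mip40/bam stood above bam by 2.55 on the log2(FPKM + 1) scale and mip40 stood at -7.32 against wt, so the changes differ by 9.87. For scpr-A the values were 1.89 and -7.95, a difference of 9.84, and for scpr-C 2.49 and -6.75, a difference of 9.24. scpr-B was listed at 0 in the bam, mip40/bam and mip40 libraries, so by these listed values it moved only in mip40 against wt. Its value there was -4.83 on the log2(FPKM + 1) scale, a size that depends on the added 1. For the sum, scpr-A and scpr-C both mip40/bam libraries lay above both bam libraries, and both mip40 libraries below both wt libraries. The share of all genes whose libraries separate in this way was not counted. Of all genes tested, 16.4% were called higher in mip40/bam against bam and 25.4% lower in mip40 against wt. The difference between the changes was not tested, since the fall in mip40 was part of what chose the genes. The starting levels also differ, with 2178 FPKM for the sum in wt and 6.21 in bam.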

How the results depend on the processing

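Over 1332 values recomputed under the alternatives named here, 1221 kept direction and side of the threshold. Another 73 kept direction but lost the call, 3 gained it, 32 turned direction, called or not, and 3 counts moved by over 1.5 times. The scpr sum in bam, comr, can and mip40 against wt kept its direction under each. For the scpr sum in mip40/bam against bam, a fit on those groups alone gave 2.55 with adjusted p = 0.0858, and leaving out replicates gave 1.81 to 3.28. Without the 4 libraries with the highest accessory gland markers, a single library is left in each of wt, CG9879, comr and can. CG9879 against wt was then 0.21 for the scpr sum, 0.11 for scpr-A and 0.25 for scpr-C. With median-of-ratios scaling of all libraries scpr-C was 0.007 in that comparison. Leaving out replicates in that comparison gave -0.25 to 0.19 for the sum, -0.30 to 0.12 for scpr-A and -0.25 to 0.22 for scpr-C. Other CAP genes called numbered 1 (0 higher, 1 lower) in CG9879 when fitted with wt alone, 3 in mip40/bam against bam with equal summed FPKM and 3 to 5 when replicates were left out there.

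antr turned direction in bam with a pseudocount of 0.1 (0.076), quantile normalization (0.72) and without the 4 libraries (1.09), in can with median-of-ratios scaling (-0.54) and quantile normalization (-0.46), in comr with median-of-ratios scaling (-0.48) and without the 4 libraries (-0.28), and in mip40 without them (0.34). Leaving out replicates moved antr from -1.29 to 1.09 in bam, -1.47 to 2.21 in comr, -0.85 to 1.52 in can, -2.04 to 0.34 in mip40 and -1.57 to 0.81 in CG9879. Ag5r2 in mip40/bam against bam was 0.006 with quantile normalization and -0.177 to 0.076 without a replicate, and in bam 0.00 to 0.25. CG8072 in mip40 was -0.26 and hdly in can -0.33 with median-of-ratios scaling, and hdly in can -0.045 with quantile normalization. The cause of these changes was not tested.

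The labels do not say whether libraries of the same replicate number are paired, and they were treated as unpaired. Deviations of same-numbered libraries correlated at -0.48 to 0.37 over the comparisons. The largest values of either sign lie between groups that each hold a library with high accessory gland markers, so pairing cannot be judged from them. A fit with the replicate block changed 1 call, that of CG34049 in CG9879 against wt (0.48, adjusted p = 0.0678), and left the scpr sum in mip40/bam against bam at 2.55 (adjusted p = 0.00108). Members were compared between arrest mutants by value, so no alternatives were run there. Depth limits the scpr genes in the mutants and Ag5r2, which rest on few fragments, and equal low values in comr, can and bam cannot be ordered at this depth.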
